A study of Mus musculus with 6 samples.

Results

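The N-glycan biosynthesis genes are the 49 of 21878 genes in the deposited count table whose pathway annotation holds the term N-Glycan biosynthesis, and they were taken by that term alone. RNA was measured by sequencing in Achilles tendon tissue of mice, with 3 libraries from tendons whose treatment is given as Achilles tendon amputation (cut tendon, libraries cut 1 to 3) and 3 from sham tendons (sham 1 to 3). The labels separate the groups by the surgery alone and give no strain, genotype, sex, age or time after surgery for either. The series title places the comparison in a study of trauma-induced heterotopic ossification, the growth of bone in soft tissue after injury. Nothing in the labels says that the libraries came from separate animals, and the p-values below therefore cover no more than the variation among the 6 libraries, part of which may be technical.

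N-glycans are sugar trees joined to asparagine residues of proteins that enter the secretory pathway. The tree is first built on the membrane lipid dolichol in the endoplasmic reticulum, moved as a block onto the growing protein by the oligosaccharyltransferase, trimmed by glucosidases and mannosidases, and then branched and capped with galactose, fucose and sialic acid in the Golgi. Collagens, proteoglycans, integrins and lysosomal enzymes, all of which healing tendon and cartilage make, are among the proteins that carry such sugars.

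Library totals were 28410231, 30715022 and 31346730 counts in cut 1, 2 and 3, against 23916839, 26176650 and 27140226 counts in sham 1, 2 and 3, so that 1 count was 0.0319 to 0.0418 CPM (counts scaled to a common library size). Tendon markers were present, with Tnmd (tenomodulin) at 586, 1014 and 456 CPM in cut 1, 2 and 3, against 78.2, 69.5 and 44.5 CPM in sham 1, 2 and 3. The libraries were not alike in tissue makeup. A list of 30 skeletal muscle genes took 1.71%, 0.542% and 16.3% of counts in cut 1, 2 and 3, against 20.6%, 20.2% and 22.4% in sham 1, 2 and 3, and cut 3 lay near the sham libraries. A list of 10 tendon genes took 12.4%, 15.4% and 6.04% of counts in the cut libraries, against 1.94%, 1.69% and 0.765% in the sham libraries, and the 11 of 12 listed chondrocyte genes that are in the table took 1.01%, 1.05% and 0.224%, against 0.0188%, 0.0122% and 0.00815%. The 12 macrophage genes took 0.141%, 0.104% and 0.129% of counts in the cut libraries, against 0.0402%, 0.0514% and 0.0463% in sham. The B and plasma cell list took 0.0264%, 0.0373% and 0.0143% in cut tendon, against 0.00664%, 0.00651% and 0.00325% in sham, with the defining B cell gene Ms4a1 at 0.161 to 0.604 CPM in the cut libraries, against 0.151 to 0.409 CPM in the sham libraries. By edgeR's quasi-likelihood test, 10 of 10 tested chondrocyte genes, 10 of 12 macrophage genes, 6 of 10 tendon genes, 3 of 9 osteoblast genes and 3 of 5 B and plasma cell genes were higher in cut tendon, 10 of 10 adipocyte genes were lower, and 0 of 30 muscle genes were called, with 3 lower at an unadjusted p under 0.05 and 11 called lower by DESeq2. Over all genes tested, edgeR called 20.4% higher and 12.3% lower, with 20.6% lower at an unadjusted p under 0.05. DESeq2 called 19.2% of all genes lower. Without cut 3, 30 of 30 muscle genes were lower (29.7% of all genes) and 9 of 10 tendon genes higher (28.5% of all genes). With the replicate block 4 muscle genes were lower (17.3% of all genes). Without any 1 other library, 1 to 2 tendon genes were higher (7.39% to 12.6% of all genes) and 0 muscle genes were called by edgeR. The part of these cell types in the results below was not tested, and in bulk tissue a change in the number of cells of a type and a change in RNA per cell cannot be told apart.

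N-glycan biosynthesis genes were called higher in cut tendon more often than lower. With all 6 libraries and without cut 3, many of the called genes lay at the transfer and trimming steps. Without 1 of the other libraries, 1 to 5 of 7 transfer and 2 to 3 of 8 trimming genes were called (7.39% to 12.6% of all genes higher). With the muscle covariate described below, 3 and 3 were called (10.8% of all genes higher). Of the 46 members with enough counts to be tested, 23 (50.0%) were called higher and 0 lower by edgeR's quasi-likelihood test with a Benjamini-Hochberg adjusted p under 0.05. Over all 14561 genes tested, 20.4% were higher and 12.3% lower. Among the 23, St6gal2 passed the filter on low counts only through the cut libraries, and without it 22 of 45 members (48.9%) were higher, with a median log2 fold change of 0.49. The median log2 fold change, cut over sham, was 0.50 for the members and -0.02 for all genes, with 35 members above 0 and 11 below. At an unadjusted p under 0.05, 29 members were higher and 2, Dpm1 and Glt28d2, lower, against 26.5% and 20.6% of all genes. DESeq2 called 26 members higher and 1, Glt28d2, lower (23.3% and 19.2% of all genes), and limma-voom called 24 higher and 1 lower (20.0% and 15.0% of all genes). In 29 members (28.7% of all tested genes) all cut libraries lay above all sham libraries, and in 32 (54.8% of all tested genes) the groups did not overlap. Together the 49 members took 0.311%, 0.316% and 0.234% of counts in cut 1, 2 and 3, against 0.185%, 0.191% and 0.177% in sham 1, 2 and 3. The remaining 3 members, the branching enzyme genes Mgat4c, Mgat4d and Mgat5b, had at most 4 counts in any library and were not tested.

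**Figure D1:**
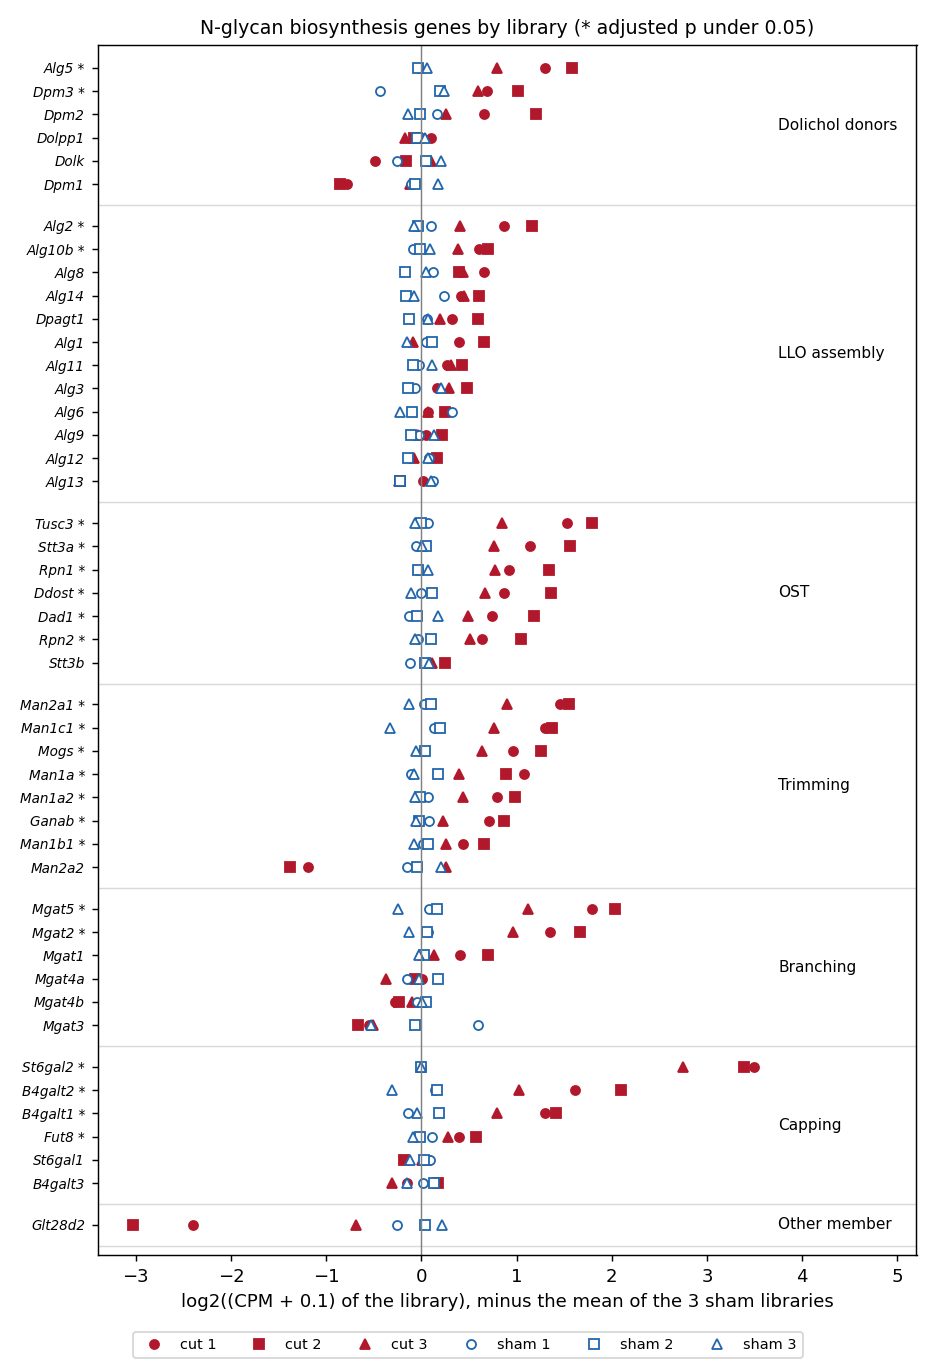
Each row is 1 of the 46 tested N-glycan biosynthesis genes, and each symbol is 1 library (filled, cut 1 to 3; open, sham 1 to 3), placed on the horizontal axis by its log2(CPM + 0.1) minus the mean of the 3 sham libraries; a star marks an adjusted p under 0.05. In the oligosaccharyltransferase and trimming rows the filled symbols lie right of the open ones in all genes except Stt3b and Man2a2, where the groups overlap.

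The libraries of the cut group differed from each other in how far the members stood above sham. Against the sham mean, the median member was at 0.52, 0.68 and 0.30 log2 units in cut 1, 2 and 3, and cut 3, which of the cut libraries had the largest muscle share, was the closest to sham. Without cut 3, 30 members were higher (28.5% of all genes) and 3 lower (29.7% of all genes), namely Dpm1, Man2a2 and Glt28d2. Leaving out any 1 of the other 5 libraries reduced both the count of higher members and the share of all genes called higher. The members numbered 13 without cut 1 (10.8% of all genes), 14 without cut 2 (12.6%), 11 without sham 1 (10.6%), 9 without sham 2 (7.39%) and 11 without sham 3 (9.19%). A muscle covariate, the log2 of the summed CPM of the muscle list, left 12 members higher (10.8% of all genes) and 0 lower in edgeR (5.1% of all genes). In that fit 1 member was lower at an unadjusted p under 0.05. The covariate was 13.9, 12.5 and 17.4 in cut 1, 2 and 3, against 17.6, 17.6 and 17.8 in sham 1, 2 and 3. Only cut 3 lay near sham on it, so the group difference in that fit rests largely on this 1 library. With the replicate number as a block, all 23 stayed higher (21.7% of all genes), and Dpm1 and Glt28d2 were lower (17.3% of all genes). The 8 members called under each of the 17 alternatives tried were Alg5, Tusc3, Man1c1, Man2a1, Mgat2, Mgat5, B4galt1 and B4galt2.

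The called genes were unevenly spread along the pathway. They were 6 of 7 oligosaccharyltransferase subunits, 7 of 8 trimming enzymes and 4 of 6 capping enzymes (3 of 5 without St6gal2), against 2 of 6 genes for dolichol-linked donors, 2 of 12 for assembly of the lipid-linked sugar and 2 of 6 for branching. Median log2 fold changes were 1.0 for the transferase, 0.78 for trimming, 0.81 for capping (0.42 without St6gal2), 0.35 for donors, 0.35 for assembly and 0.15 for branching. Of all genes tested, 20.4% were higher, with a median log2 fold change of -0.02. Whether these steps differ from each other was not tested. The plot by step shows the same counts under 3 settings.

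**Figure D2:**
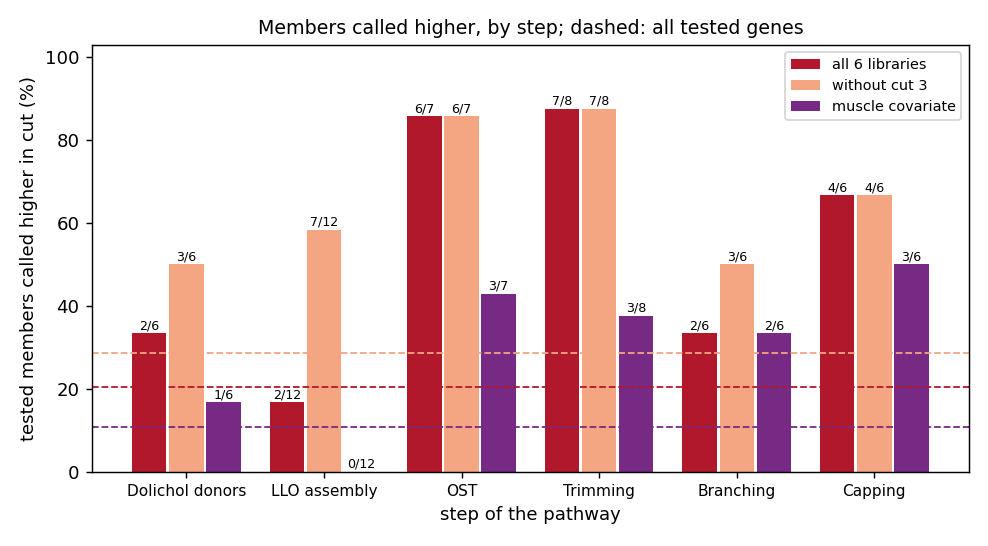
Bars give the percentage of tested members at each step that were higher in cut tendon (vertical axis, %), with all 6 libraries (red), without cut 3 (orange) and with the muscle covariate (purple), and dashed lines give the percentage of all tested genes in the same 3 settings, 20.4, 28.5 and 10.8. The transferase and trimming bars stand at 6 of 7 and 7 of 8 with and without cut 3, and at 3 of 7 and 3 of 8 with the muscle covariate. The capping bar includes St6gal2, and the assembly bar moves between 0 of 12 and 7 of 12.

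Genes that make the dolichol-linked sugar donors were mixed, with Alg5 and Dpm3 higher and the other 4 not called. Alg5 had 26.9, 32.7 and 18.9 CPM in cut 1, 2 and 3, against 10.7, 10.6 and 11.3 CPM in sham 1, 2 and 3 (log2 fold change 1.27 ± 0.21, edgeR adjusted p = 0.00857). Alg5, at chr3:54735539-54749795 in GRCm38.p6, makes dolichol-phosphate-glucose, the donor of the glucoses that mark a finished tree. All cut libraries lay above all sham libraries, cut 3 included. The other donor, dolichol-phosphate-mannose, is made by an enzyme of 3 subunits, whose genes differed in direction. Dpm3 (a membrane anchor of that enzyme) had 10.8, 13.6 and 10.1 CPM in cut 1, 2 and 3, against 4.90, 7.65 and 7.90 CPM in sham 1, 2 and 3 (log2 fold change 0.76 ± 0.23, edgeR adjusted p = 0.0486), with no overlap of the groups. Dpm2 (the other small subunit) had 13.8, 20.2 and 10.4 CPM in cut 1, 2 and 3, against 9.72, 8.59 and 7.86 CPM in sham 1, 2 and 3 (log2 fold change 0.76 ± 0.26, edgeR adjusted p = 0.0623), again without overlap but not called. The catalytic subunit Dpm1, chosen after its values were seen, ran the other way at 16.6, 15.8 and 26.4 CPM in cut 1, 2 and 3, against 26.6, 27.4 and 32.3 CPM in sham 1, 2 and 3 (log2 fold change -0.55 ± 0.22, edgeR adjusted p = 0.0974), with cut 1 and 2 well below sham and cut 3 just below it. Dpm1 was called lower under the replicate block (log2 fold change -0.59, edgeR adjusted p = 0.0361) and without cut 3 (-0.83, edgeR adjusted p = 0.00138). With the muscle covariate its log2 fold change was -0.10 (edgeR adjusted p = 0.747). The dolichol kinase gene Dolk (-0.17) and the dolichyl diphosphatase gene Dolpp1 (-0.05) had log2 fold changes near 0. Without cut 3, Dpm2 joined the 2 called genes, and without any 1 of the other libraries or with the muscle covariate only Alg5 was called.

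The 12 genes that assemble the lipid-linked oligosaccharide had small log2 fold changes. Of them 2 were called higher (16.7%), a share below the 20.4% of all genes. Alg2, which adds mannoses on the outer face of the endoplasmic reticulum, had 39.2, 47.9 and 28.3 CPM in cut 1, 2 and 3, against 23.0, 20.9 and 20.3 CPM in sham 1, 2 and 3 (log2 fold change 0.84 ± 0.20, edgeR adjusted p = 0.0234). Alg10b, which adds the last glucose, had 70.1, 74.8 and 60.2 CPM in cut 1, 2 and 3, against 43.4, 45.7 and 49.2 CPM in sham 1, 2 and 3 (log2 fold change 0.57 ± 0.13, edgeR adjusted p = 0.0200). Alg14, the membrane partner of the enzyme that adds the second GlcNAc, was at 14.3, 16.3 and 14.6 CPM in the cut libraries, against 12.6, 9.50 and 10.1 CPM in the sham libraries (log2 fold change 0.49 ± 0.15, edgeR adjusted p = 0.0512). In each of these 3 genes the groups did not overlap, and Alg14 lay just outside the threshold. The other 9 genes had log2 fold changes between -0.16 (Alg13) and 0.51 (Alg8), with Dpagt1, whose enzyme starts the tree, at 0.38. Without cut 3, 7 of the 12 were higher (28.5% of all genes). By edgeR 0 of 12 were higher without any 1 of the other 5 libraries (7.39% to 12.6% of all genes). With the muscle covariate 0 of 12 were called too (10.8% of all genes), and 2 were higher at an unadjusted p under 0.05. In the fit of all 6 libraries 6 of the 12 were higher at an unadjusted p under 0.05 (26.5% of all genes). DESeq2 called 4 higher (23.3% of all genes).

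Promoter sequence was searched because enzymes of the endoplasmic reticulum are known targets of the unfolded protein response, the program that senses misfolded protein there. RefSeq promoter entries of GRCm38.p6 were found for 41 of the 49 members, and the 250 bases before the start were read on both strands. The endoplasmic reticulum stress element, CCAAT followed after 9 bases by CCACG, stood before 1 member, Alg12, and before 0.13% of 27025 genes. A second form of that element, ATTGG followed after 1 base by CCACG, stood before 0 members and 0.037% of genes, and TGACGTGG, the core that XBP1 and ATF6 bind, before 0 members and 0.603%. A variant of that core, TGACGTGA, stood before 1 member, Mogs, and 0.411% of genes. The CCAAT box, which is also the first part of the stress element, stood before 20 of the 41 members (48.8%) and 37.5% of all genes, and 11 of those 20 were among the 20 called members that have a promoter entry. The 2 promoters with the longer matches are given here, with matches in capitals, that of Mogs at chr6:83115256-83115495 on the plus strand (240 bases, up to the first annotated exon) and that of Alg12 at chr15:88819319-88819568 on the minus strand (250 bases).
Mogs: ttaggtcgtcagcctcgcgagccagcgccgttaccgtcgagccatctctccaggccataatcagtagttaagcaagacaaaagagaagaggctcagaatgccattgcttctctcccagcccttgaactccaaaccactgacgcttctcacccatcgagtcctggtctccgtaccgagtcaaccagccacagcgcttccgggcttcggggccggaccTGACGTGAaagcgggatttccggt
Alg12: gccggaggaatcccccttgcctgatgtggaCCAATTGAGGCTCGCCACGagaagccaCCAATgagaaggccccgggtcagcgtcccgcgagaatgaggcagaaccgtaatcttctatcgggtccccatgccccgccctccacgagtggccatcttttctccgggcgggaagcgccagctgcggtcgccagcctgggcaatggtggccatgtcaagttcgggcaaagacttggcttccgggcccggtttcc
The capitals in Mogs are the core variant. In Alg12 the first run of capitals is the stress element and the second a further CCAAT. Alg12, a mannosyltransferase of the assembly line, had 9.15, 9.72 and 8.22 CPM in cut 1, 2 and 3, against 9.15, 7.84 and 9.09 CPM in sham 1, 2 and 3 (log2 fold change 0.06 ± 0.15, edgeR adjusted p = 0.783), and the groups overlapped. Creld2, a gene of the endoplasmic reticulum that starts 327 bases beyond Alg12 and was chosen after its values were seen, had 18.2, 25.6 and 12.7 CPM in the cut libraries, against 9.64, 8.97 and 11.6 CPM in the sham libraries (log2 fold change 0.90 ± 0.27, edgeR adjusted p = 0.0450). Creld2 was called in 8 of 17 alternatives, and its adjusted p over the 17, by edgeR, DESeq2 or limma, ran between 0.00157 and 0.476. Its log2 fold change was 0.25 with the muscle covariate (edgeR adjusted p = 0.476). Its call was also lost with the replicate block (edgeR adjusted p = 0.0797), limma-voom (0.0572) and limma on log2(FPKM + 1) (0.0513), and without any 1 library except cut 3.

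The oligosaccharyltransferase moves the finished tree onto asparagine. All of its subunits in the pathway term were higher except Stt3b. Mammalian cells have a pair of these enzymes, a complex with the catalytic subunit STT3A that sits on the protein channel and works during translation, and a complex with STT3B that works on sites that were missed and needs TUSC3 or MAGT1. Tusc3, at chr8:39005351-39167050, had 37.5, 44.9 and 23.2 CPM in cut 1, 2 and 3, against 13.5, 12.9 and 12.3 CPM in sham 1, 2 and 3 (log2 fold change 1.45 ± 0.24, edgeR adjusted p = 0.00915). Rpn1 (ribophorin I), a subunit of both complexes, had 147, 196 and 132 CPM in the cut libraries, against 75.3, 75.6 and 81.2 CPM in the sham libraries (log2 fold change 1.03 ± 0.18, edgeR adjusted p = 0.00973). Stt3a, at chr9:36729344-36767622, had 206, 276 and 159 CPM in the cut libraries, against 89.9, 97.0 and 94.1 CPM in the sham libraries (log2 fold change 1.19 ± 0.22, edgeR adjusted p = 0.0116). In all 3 genes the lowest cut library, cut 3, lay above the highest sham library. Stt3b, at chr9:115242470-115310468, stayed close between the groups at 166, 188 and 170.0 CPM in cut 1, 2 and 3, against 144, 162 and 167 CPM in sham 1, 2 and 3 (log2 fold change 0.15 ± 0.14, edgeR adjusted p = 0.424), and the groups overlapped. The shared subunits Ddost (1.0), Dad1 (0.83) and Rpn2 (0.75) were also called, with edgeR adjusted p values of 0.0153, 0.0244 and 0.0240.

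Per length, Stt3a came close to Stt3b in cut tendon and was well below it in sham. Stt3a averaged 36.5 ± 9.96 FPKM (counts scaled to gene length and library total) in cut tendon and 16.0 ± 0.648 FPKM in sham (SD, n = 3 each). Stt3b averaged 41.4 ± 2.71 FPKM in cut tendon and 37.3 ± 1.99 FPKM in sham (SD, n = 3 each). Stt3a was at 0.893, 1.06 and 0.673 times the Stt3b level in cut 1, 2 and 3, against 0.448, 0.431 and 0.406 times in sham 1, 2 and 3. In cut tendon the member with the highest level per length was Ddost, a shared scaffold subunit chosen after its values were seen. Ddost averaged 65.8 ± 16.1 FPKM in cut tendon and 33.0 ± 3.25 FPKM in sham, where Stt3b was higher. Of 5 subunit genes outside the pathway term, 3 were higher. Ostc, a subunit of the STT3A complex, had 55.2, 81.2 and 49.1 CPM in cut 1, 2 and 3, against 19.8, 19.7 and 21.4 CPM in sham 1, 2 and 3 (log2 fold change 1.61 ± 0.21, edgeR adjusted p = 0.00519). Krtcap2, the other subunit of that complex (log2 fold change 0.82 ± 0.17, edgeR adjusted p = 0.0147), and the small shared subunit Ost4 (log2 fold change 0.86 ± 0.18, edgeR adjusted p = 0.0159) were also higher. Magt1, the alternative to Tusc3 in the STT3B complex, was not called at 44.6, 49.1 and 53.1 CPM in the cut libraries, against 44.6, 45.8 and 61.4 CPM in the sham libraries (log2 fold change -0.05 ± 0.16, edgeR adjusted p = 0.833). Tmem258, a further shared subunit, was not called either (log2 fold change 0.53 ± 0.18, edgeR adjusted p = 0.0661).

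**Figure D3:**
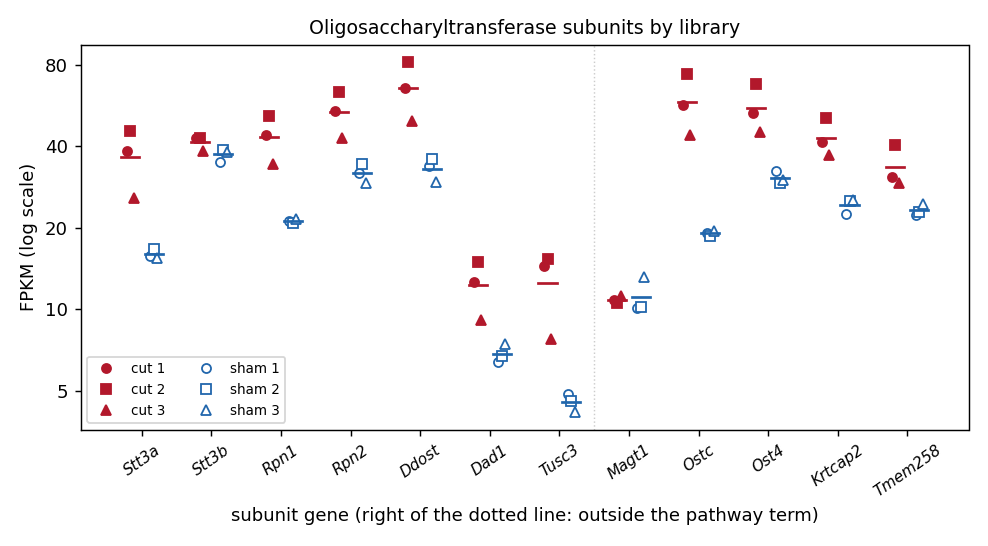
Level of each oligosaccharyltransferase subunit gene in FPKM (vertical axis, log scale) in cut 1 to 3 (filled) and sham 1 to 3 (open), with a line at each group's mean and the genes outside the pathway term right of the dotted line. Stt3a lies at 25.8 to 45.4 FPKM in cut tendon and at 15.5 to 16.7 FPKM in sham, while Stt3b and Magt1 lie close together in both groups.

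The calls for the transferase depended on the libraries. Without cut 3, the same 6 of 7 subunits were called. Without any 1 other library, 4 (without cut 1), 5 (without cut 2), 2 (without sham 1 or sham 3) and 1 (without sham 2) were called, and with the muscle covariate 3 were. Stt3a missed the threshold without sham 1, 2 or 3, where its log2 fold change was 1.16, 1.19 and 1.16 and its edgeR adjusted p 0.0511, 0.0556 and 0.0502. Rpn1 missed it without sham 2 (0.99, edgeR adjusted p = 0.0535).

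Trimming enzymes, which cut glucose and mannose from the transferred tree, were higher in cut tendon in 7 of 8 cases. Man2a1 (Golgi mannosidase II, the step that commits a tree to the complex form) had 215, 229 and 146 CPM in cut 1, 2 and 3, against 79.4, 83.8 and 71.3 CPM in sham 1, 2 and 3 (log2 fold change 1.33 ± 0.20, edgeR adjusted p = 0.00714). Mogs (glucosidase I, which removes the outermost glucose) had 20.8, 25.5 and 16.5 CPM in cut 1, 2 and 3, against 10.7, 10.9 and 10.2 CPM in sham 1, 2 and 3 (log2 fold change 0.98 ± 0.18, edgeR adjusted p = 0.0112). Man1c1 (a Golgi mannosidase I) had 96.9, 102 and 67.0 CPM in cut 1, 2 and 3, against 43.2, 45.2 and 31.2 CPM in sham 1, 2 and 3 (log2 fold change 1.15 ± 0.22, edgeR adjusted p = 0.0130). None of the 3 genes had overlapping groups, and in each the lowest cut library was cut 3. The other Golgi mannosidase I genes were called as well. Man1a had 219, 192 and 137 CPM in cut 1, 2 and 3, against 96.5, 118 and 98.7 CPM in sham 1, 2 and 3 (log2 fold change 0.81 ± 0.21, edgeR adjusted p = 0.0292). Man1a2 had 106, 120.2 and 82.7 CPM in the cut libraries, against 64.1, 60.5 and 58.2 CPM in the sham libraries (log2 fold change 0.76 ± 0.16, edgeR adjusted p = 0.0178). Ganab, the catalytic subunit of glucosidase II (0.63), and Man1b1, the mannosidase that marks misfolded glycoproteins for disposal (0.46), completed the called genes. Prkcsh, the partner subunit of glucosidase II, lies outside the pathway term and was also higher (log2 fold change 1.0 ± 0.17, edgeR adjusted p = 0.00995).

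The exception was Man2a2, a close relative of Man2a1 with the same reaction. Man2a2 had 84.9, 74.7 and 233 CPM in cut 1, 2 and 3, against 175, 188 and 224 CPM in sham 1, 2 and 3 (log2 fold change -0.58 ± 0.45, edgeR adjusted p = 0.334). Cut 1 and 2 were below every sham library and cut 3 was above them all, the same split of the cut libraries as in the muscle list. Without cut 3, Man2a2 was lower (log2 fold change -1.29, edgeR adjusted p = 0.000308), and with the muscle covariate its log2 fold change was 0.31. The part of muscle in its values was not tested. For the trimming genes as a group, 7 of 8 were higher without cut 3 too, but only 3 were without cut 1, cut 2, sham 1 or sham 3, 2 without sham 2, and 3 with the muscle covariate. Mogs missed the threshold only without sham 2 (log2 fold change 0.98, edgeR adjusted p = 0.0527). Man2a1 and Man1c1 stayed called under each of the 17 alternatives.

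Branching enzymes add the GlcNAc residues from which the antennae of a complex N-glycan grow, and they divided into a pair that was higher and 4 that were not called. Mgat5 (which starts the branch that poly-LacNAc chains extend, at chr1:127204919-127488334) had 93.2, 109.9 and 58.5 CPM in cut 1, 2 and 3, against 28.3, 30.1 and 22.6 CPM in sham 1, 2 and 3 (log2 fold change 1.69 ± 0.26, edgeR adjusted p = 0.00700). Mgat2 (which starts the second antenna, at chr12:69184158-69186773) had 63.2, 78.4 and 48.2 CPM in cut 1, 2 and 3, against 25.9, 25.8 and 22.6 CPM in sham 1, 2 and 3 (log2 fold change 1.35 ± 0.19, edgeR adjusted p = 0.00631). In both genes even cut 3, the lowest cut library, lay well above the highest sham library, and both were called under all 17 alternatives. Mgat1, which adds the first GlcNAc and opens the way to every complex or hybrid tree, was at 85.7, 105 and 70.7 CPM in cut 1, 2 and 3, against 64.5, 65.6 and 63.3 CPM in sham 1, 2 and 3 (log2 fold change 0.43 ± 0.16, edgeR adjusted p = 0.0844). Its groups did not overlap, and of the 17 alternatives it was called only without cut 3 (log2 fold change 0.56, edgeR adjusted p = 0.00517). Mgat3, which adds the bisecting GlcNAc, a residue that blocks further branching by MGAT5, was at 12.7, 11.7 and 13.1 CPM in the cut libraries, against 28.3, 17.8 and 12.9 CPM in the sham libraries (log2 fold change -0.65 ± 0.28, edgeR adjusted p = 0.116). Cut 3 and sham 3 had nearly the same Mgat3 value, so the groups overlapped. Mgat4a and Mgat4b, whose enzymes add a further branch, were not called. Mgat4a had 40.0, 38.1 and 30.9 CPM in cut 1, 2 and 3, against 35.9, 45.1 and 39.2 CPM in sham 1, 2 and 3 (log2 fold change -0.14 ± 0.15, edgeR adjusted p = 0.477). Mgat4b had 40.5, 41.8 and 45.7 CPM in the cut libraries, against 47.4, 50.7 and 49.1 CPM in the sham libraries (log2 fold change -0.20 ± 0.11, edgeR adjusted p = 0.179). The Mgat4b groups did not overlap, with cut tendon lower.

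Of the 5 capping enzymes that were counted in both groups, which add galactose, fucose and sialic acid, 3 were higher. B4galt1 (the main galactosyltransferase of N-glycan antennae) had 204, 222 and 144 CPM in cut 1, 2 and 3, against 75.2, 94.4 and 80.7 CPM in sham 1, 2 and 3 (log2 fold change 1.19 ± 0.20, edgeR adjusted p = 0.00975). B4galt2 (a related galactosyltransferase) had 30.7, 42.7 and 20.3 CPM in cut 1, 2 and 3, against 11.0, 11.1 and 8.02 CPM in sham 1, 2 and 3 (log2 fold change 1.64 ± 0.29, edgeR adjusted p = 0.0107). In both genes every cut library lay above every sham library. B4galt3, another relative, had 10.2, 12.8 and 9.16 CPM in cut 1, 2 and 3, against 11.5, 12.4 and 10.2 CPM in sham 1, 2 and 3 (log2 fold change -0.09 ± 0.17, edgeR adjusted p = 0.718), with overlapping groups. St6gal2, a sialyltransferase at chr17:55445118-55514581, was counted in cut tendon alone, with 32, 28 and 17 counts in cut 1, 2 and 3, against 0, 0 and 0 in sham 1, 2 and 3. Taking 3 counts in each sham library as the limit that a count of 0 allows, the sham limits were 0.111 to 0.125 CPM. The mean of the cut libraries was 7.26-fold the mean of these limits, and the lowest cut library was 4.55-fold the highest limit. These values allow for counting error in the sham libraries only. St6gal2 was called (edgeR adjusted p = 0.00813), but it passed the filter on low counts only through the cut libraries and was therefore bound to differ. It was not called by limma on log2(FPKM + 1). The main sialyltransferase of N-glycans, St6gal1, did not pass the threshold (log2 fold change -0.03 ± 0.12, edgeR adjusted p = 0.871). Fut8, which adds the core fucose, was higher by a small amount (log2 fold change 0.42 ± 0.13, edgeR adjusted p = 0.0449) and was lost in 11 of the 17 alternatives. Leaving out any 1 library other than cut 3 left B4galt1 and B4galt2 called of these 5, as did the muscle covariate.

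The last member, Glt28d2 (glycosyltransferase 28 domain containing 2), stood apart. Glt28d2 had 2.10, 1.32 and 7.11 CPM in cut 1, 2 and 3, against 9.64, 11.8 and 13.4 CPM in sham 1, 2 and 3 (log2 fold change -1.73 ± 0.60, edgeR adjusted p = 0.0681). All cut libraries lay below all sham libraries, with cut 3, the library with the larger muscle share, between cut 1 and 2 and sham. It was lower under DESeq2 (-1.75, adjusted p = 0.00915), limma-voom (-2.09, adjusted p = 0.0264), the replicate block (-2.04, edgeR adjusted p = 0.0363) and without cut 3 (-2.76, edgeR adjusted p = 0.000113). With the muscle covariate its log2 fold change was -0.56 (edgeR adjusted p = 0.153), and the part of muscle in its values was not tested. Its exons overlap those of the gene model Gm37240 on the same strand, so its counts are uncertain to that extent.

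Ratios of related enzymes within a library do not depend on the library's scaling, and 7 were compared. The log2 count ratio of Stt3a to Stt3b was 0.31, 0.56 and -0.10 in cut 1, 2 and 3, against -0.68, -0.74 and -0.83 in sham 1, 2 and 3, a mean difference of 1.01 (2.01-fold). For Tusc3 to Magt1, the alternative subunits of the STT3B complex, it was -0.25, -0.13 and -1.19 in the cut libraries, against -1.72, -1.83 and -2.32 in the sham libraries, a mean difference of 1.43. For Mgat5 to Mgat3, the branching enzyme to the bisecting one, it was 2.87, 3.23 and 2.16 in the cut libraries, against 0.00, 0.76 and 0.81 in the sham libraries, a mean difference of 2.23. In all 3 ratios every cut library lay above every sham library. The ratio of Man2a1 to Man2a2 was 1.34, 1.62 and -0.67 in cut 1, 2 and 3, against -1.14, -1.17 and -1.65 in sham 1, 2 and 3 (mean difference 2.08), with cut 3 close to sham. The ratio of B4galt1 to B4galt3 was 4.33, 4.11 and 3.97 in the cut libraries, against 2.70, 2.92 and 2.98 in the sham libraries (mean difference 1.26). Man1a to Man1a2 (0.05) and Mgat4a to Mgat4b (0.06) had mean differences near 0 and overlapping groups. A two-sided exact permutation test gave p = 0.1 for each of the 5 ratios without overlap, the smallest that 3 against 3 libraries allow, and 0.14 after Benjamini-Hochberg adjustment over the 7, so no ratio could pass the threshold. The same exact permutation test gave p = 0.7 for Man1a to Man1a2 and 0.8 for Mgat4a to Mgat4b. With the replicate numbers as pairs, the smallest exact p is 0.25.

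**Figure D4:**
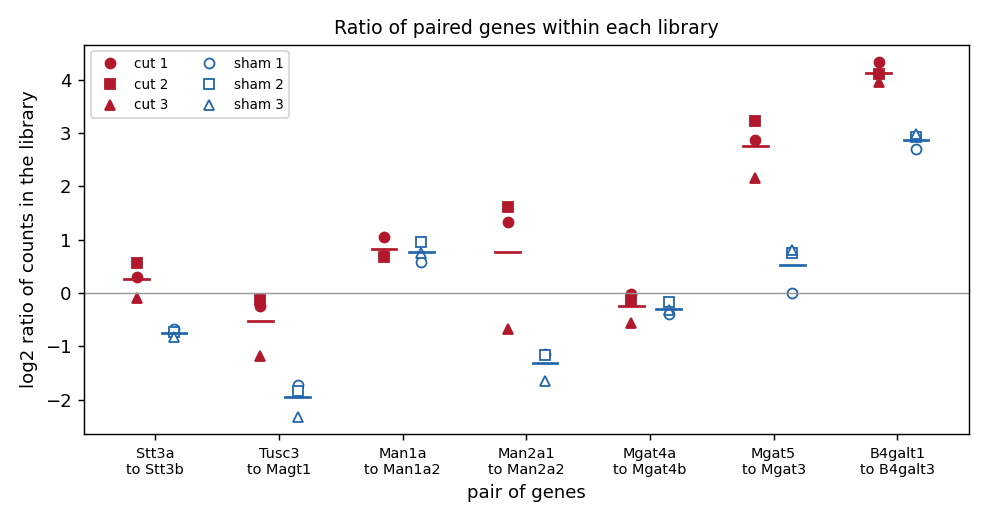
Log2 ratio of the counts of paired genes (vertical axis) within each of cut 1 to 3 (filled) and sham 1 to 3 (open), with a line at each group's mean. Filled and open symbols are apart for Stt3a to Stt3b, Tusc3 to Magt1, Man2a1 to Man2a2, Mgat5 to Mgat3 and B4galt1 to B4galt3, with mean differences of 1.01, 1.43, 2.08, 2.23 and 1.26, and mixed for the 2 other pairs.

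Of 10 tested genes that carry out the same steps but lie outside the pathway term, 6 (60.0%) were higher in cut tendon, against 20.4% of all genes. Besides Ostc, Krtcap2, Ost4 and Prkcsh, these were the polyprenol reductase gene Srd5a3 (log2 fold change 0.80 ± 0.20, edgeR adjusted p = 0.0270) and Nus1, a subunit of the enzyme that builds the dolichol chain (log2 fold change 0.59 ± 0.17, edgeR adjusted p = 0.0395). Dhdds, the partner of Nus1, was not called (log2 fold change 0.23 ± 0.12, edgeR adjusted p = 0.185). The count was 8 without cut 3 (28.5% of all genes) and 4 without cut 1 or cut 2 (10.8% and 12.6% of all genes). It was 2 without any 1 sham library (7.39% to 10.6% of all genes) and 2 with the muscle covariate (10.8% of all genes). Ostc and Prkcsh were called under all 17 alternatives, and Srd5a3 and Nus1 were lost without any 1 library except cut 3, Nus1 also with the replicate block. With the muscle covariate both were lost too, at log2 fold changes of 0.39 for Srd5a3 and 0.35 for Nus1.

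Genes that supply the sugars were higher in part. Of 28 tested genes for sugar nucleotide supply and transport, 13 were higher (46.4%) and 2 lower (7.14%). Their log2 fold changes had a median of 0.47 and ran from -1.81 to 2.10. The summed share of counts of this list went the other way and was lower in cut tendon. It was 0.106%, 0.107% and 0.1% in cut 1, 2 and 3, against 0.121%, 0.134% and 0.139% in sham 1, 2 and 3. Over all genes tested, 20.4% were higher and 12.3% lower. Gmppb, which makes GDP-mannose, had 25.3, 45.7 and 18.7 CPM in cut 1, 2 and 3, against 7.27, 7.12 and 6.49 CPM in sham 1, 2 and 3 (log2 fold change 2.10 ± 0.34, edgeR adjusted p = 0.00792). Nans, which makes sialic acid, had 28.0, 42.3 and 24.8 CPM in the cut libraries, against 10.3, 11.1 and 11.5 CPM in the sham libraries (log2 fold change 1.53 ± 0.22, edgeR adjusted p = 0.00627). Galt, an enzyme of galactose use, had the smaller p of the 2 genes called lower (log2 fold change -0.58 ± 0.15, edgeR adjusted p = 0.0316). Galt was lost without any 1 library except cut 3 and with the muscle covariate (-0.31, edgeR adjusted p = 0.239). Further Golgi capping enzymes, a list not limited to enzymes that act on N-glycans, were higher in 11 of 21 cases (52.4%) and lower in 0 by edgeR (median 0.59). At an unadjusted p under 0.05, 2 were lower (20.6% of all genes), and DESeq2 called 2 lower (19.2% of all genes). The smallest p values there belonged to the galactosyltransferase gene B4galt6 (log2 fold change 0.90 ± 0.11, edgeR adjusted p = 0.00509) and to B3gnt2, which extends poly-LacNAc chains (log2 fold change 1.18 ± 0.19, edgeR adjusted p = 0.00767).

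Genes that fold, inspect and break down N-glycoproteins were higher in 11 of 21 cases (52.4%) and lower in 0 by edgeR (median 0.55). Over all genes tested, 20.4% were higher and 12.3% lower. At an unadjusted p under 0.05, 1 of the 21 was lower (20.6% of all genes), and DESeq2 called 2 lower (19.2% of all genes). Manba, a lysosomal mannosidase, had 67.7, 85.4 and 43.6 CPM in cut 1, 2 and 3, against 16.1, 17.5 and 15.0 CPM in sham 1, 2 and 3 (log2 fold change 2.02 ± 0.25, edgeR adjusted p = 0.00499). Man2b1, the other main lysosomal mannosidase, had 141, 125 and 109 CPM in the cut libraries, against 51.2, 58.5 and 53.6 CPM in the sham libraries (log2 fold change 1.20 ± 0.14, edgeR adjusted p = 0.00440). In both genes every cut library lay above every sham library. Translocon and signal peptidase genes were higher in 11 of 23 cases (47.8%) and lower in 0 by edgeR (median 0.45). At an unadjusted p under 0.05, 1 of the 23 was lower, and DESeq2 called 1 lower. The smallest p values in that list belonged to the translocon-associated subunit Ssr2 (log2 fold change 1.39 ± 0.20, edgeR adjusted p = 0.00675) and the signal peptidase subunit Sec11a (log2 fold change 1.08 ± 0.17, edgeR adjusted p = 0.00756). Of 20 unfolded protein response genes 8 were higher (40.0%) and 1 lower (5.0%), with a median of 0.59. The protein disulfide isomerases Pdia4 (log2 fold change 1.35 ± 0.21, edgeR adjusted p = 0.00781) and Pdia6 (log2 fold change 1.20 ± 0.20, edgeR adjusted p = 0.00899) had the smallest p values, and the stress-induced transcription factor gene Ddit3 was lower (log2 fold change -0.50 ± 0.12, edgeR adjusted p = 0.0255). Ddit3 was lost with upper quartile scaling and without any 1 library except cut 3.

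These counts moved with the libraries as those of the members did, and so did the share of all genes called. Of all genes, 28.5% were higher without cut 3, 7.39% to 12.6% without 1 of the other libraries and 10.8% with the muscle covariate. The shares of all genes lower were 29.7% without cut 3 and 17.3% with the replicate block. Without cut 3, the counts of higher genes were 16 of 28 for supply, 13 of 21 for further capping, 14 of 21 for folding and disposal, 14 of 23 for the translocon and 12 of 20 for the unfolded protein response. Without 1 of the other libraries they lay between 3 and 8 for supply, 5 and 8 for further capping, 3 and 6 for folding and disposal, 3 and 9 for the translocon and 2 and 5 for the unfolded protein response. With the muscle covariate they were 5, 6, 6, 7 and 4 in the same order. The counts of lower genes in that order were 3, 3, 2, 2 and 2 without cut 3 and 2, 2, 1, 1 and 1 with the replicate block. The genes named by their p values in these lists, apart from Galt and Ddit3, were called under each of the 17 alternatives.

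Other terms of the same annotation were read beside the members. Mucin type O-glycan biosynthesis, the other main route of protein glycosylation, had 11 of 21 tested genes higher and 1 lower (median log2 fold change 0.62). GPI-anchor biosynthesis, which shares the dolichol-linked mannose donor and 1 gene with the N-glycan term, had 7 of 24 others higher and 1 lower (median 0.12). The term for protein processing in the endoplasmic reticulum shares 13 genes with the N-glycan term, and of its 138 other tested genes 38 were higher and 10 lower (median 0.09; with DESeq2, 43 and 21). DESeq2 called 23.3% of all genes higher and 19.2% lower. Protein export had 7 of 27 higher and 2 lower (median 0.13), and Lysosome 63 of 114 higher and 3 lower (median 0.65). By edgeR the shares higher were 52.4%, 29.2%, 27.5%, 25.9% and 55.3% in that order, against 20.4% of all genes, and 12.3% of all genes were lower. Without cut 3 the counts higher were 14, 9, 54, 11 and 80 in the same order, and without 1 of the other libraries 5 to 7, 5, 10 to 26, 2 to 6 and 33 to 53. Of all genes, 28.5% were higher without cut 3 and 7.39% to 12.6% without 1 of the other libraries. Lower genes in these terms numbered 1, 3, 39, 6 and 8 without cut 3 (29.7% of all genes). With the replicate block they numbered 1, 0, 22, 4 and 5 (17.3% of all genes). Differences between these terms and the N-glycan term were not tested.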

How the data were processed

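Total RNA (mirVana kit) was depleted of ribosomal RNA and made into strand-specific libraries, per the labels' protocols. The read trimmer Trimmomatic, the aligner HISAT2 and the genome build GRCm38.p6 are named without versions, per the submitters' processing notes. Which program counted the reads, and whether it used their strand, is not given in the sources used here. Counts of genes with overlapping exons are therefore uncertain, which touches 19 of the 49 members, 16 of them through a gene on the other strand (among them Mgat2, Mgat5, Man2a1, Man2a2 and Rpn1) and 4 on the same strand (Alg10b, B4galt2, Dpm1 and Glt28d2). The values tested were the deposited read counts, whole numbers with no normalization. Levels per length were the FPKM that the authors deposited, which the values show to be those counts over gene length and library total.

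Counts were fitted in R 4.3.3 with edgeR 4.0.16 (filterByExpr, TMM scaling, quasi-likelihood test, Benjamini-Hochberg adjustment over 14561 genes). Log2 fold changes are given ± SE and CPM are TMM-normalized. The members, gene lists, ratios and alternatives were chosen with earlier results of these data known. Values by library are given for the 3 members with the smallest p at each step and for genes of the ratios. Of the wider lists, the 2 genes with the smallest p and the smallest in the other direction are named. Deviations from the group mean in same-numbered cut and sham libraries correlated at 0.259, 0.13 and 0.409 across genes. However, cut 2 correlated more with sham 1 (0.244) than with sham 2, and cut 1 also with sham 2 (0.115). Deviations within a group cancel out, so these values are not independent. They do not show that libraries numbered 1 or 2 are pairs. All same-number values were above 0.1, so a fit with the replicate number as a block is reported where it changes a call. Tested on simulated data (14422 genes, 100 of them changed 4-fold and 100 changed 2-fold), the fit called 87% of the 4-fold genes and 14% of the 2-fold genes. Far fewer genes were changed there than were called in the data, which makes the adjusted threshold stricter. These shares therefore do not give the power of the tests reported here. No pair of libraries was a duplicate, with a chi-square of at least 13.4 per gene. Alternatives used DESeq2 1.42.0, limma 3.58.1, other scalings and filters, and limma on log2(FPKM + 1) and log2(FPKM + 0.1). Others took the log2 of the summed muscle CPM as a covariate or left 1 library out. Promoters were read from RefSeq entries in Python 3.11.15, and bases annotated as exon were left out of the print.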

Additional observations from a re-analysis of the deposited data

How the results depend on the processing

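With all 6 libraries, 23 N-glycan biosynthesis genes were higher and 0 lower, and 2968 of all genes were higher and 1789 lower. The members higher fell by more than 1.5-fold with the muscle covariate (12) and with any 1 library other than cut 3 left out (9 to 14). Without cut 3 they were 30, a rise of less than 1.5-fold. The members lower were 1 with DESeq2, with limma-voom and with limma on log2(FPKM + 1) or log2(FPKM + 0.1), 2 with the replicate block and 0 to 3 with 1 library left out. Over all genes, DESeq2 called 3362 higher and 2776 lower, and the muscle covariate left 1570 higher and 742 lower. With 1 library left out, all genes higher ran from 1091 to 4212 and all genes lower from 436 to 4392. The cause of these shifts was not tested, and a fit without 1 library has fewer samples. The other settings gave 19 to 26 members higher. No member called higher changed direction in any of the 17 alternatives, 8 of the 23 were called in all of them, 3 (Mogs, Rpn1 and St6gal2, the last bound to differ by the filter) in all but 1, and 12 in fewer. Of the 23 members not called, 13 were called in none. The pairing of cut and sham libraries by number, used as a block, changed the call of Dpm1 and Glt28d2 and of no other member. The 7 ratio differences kept their sign in all alternatives except the near-zero ones of Man1a to Man1a2 (-0.07 to 0.14) and Mgat4a to Mgat4b (-0.05 to 0.22). Depth limits Mgat4c, Mgat4d, Mgat5b and St6gal2, for which a few counts decide the value. In simulation with 3 libraries a group, 14% of 100 genes changed 2-fold were called. Far fewer genes were changed there than were called in the data, so that share does not carry over to these tests.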
